A study of Mus musculus with 36 samples.

Results

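The 10 genes described here carry glucose into the cell and through the first steps of glycolysis. They are the glucose transporters Slc2a1 and Slc2a3, the hexokinases Hk1 and Hk2, the isomerase Gpi1, the phosphofructokinases Pfkl, Pfkm and Pfkp, the aldolase Aldoa and the triosephosphate isomerase Tpi1. They were chosen by name, as the rows of the deposited messenger RNA table that carry these symbols, and all 10 were found among its 12762 genes. The cells were the mouse pre-B cell line B3, grown as a control line transduced with an empty vector that carries the ERt2 domain and as an Ikaros line transduced with a retrovirus for haemagglutinin-tagged Ikaros fused to ERt2. Both vectors also carry GFP, by which the transduced cells had been sorted before they were expanded. ERt2 is the hormone-binding domain of the estrogen receptor, and 4-hydroxytamoxifen (4-OHT) moves the fusion protein into the nucleus. Each line was collected at 0, 2, 6, 12, 18 and 24 h, with 3 libraries from separate culture batches in each of the 12 groups and 36 libraries in all. The labels give every sample, the 0 h samples included, 4-OHT at 0.5 uM, whereas the methods describe the 0 h cells as cultured without the drug and collected on separate occasions. Both are lines made from 1 parental pre-B line, so the comparison of Ikaros with control cells is also a comparison of 2 transduced lines.

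Glucose enters lymphoid cells through the facilitative transporters GLUT1 (Slc2a1) and GLUT3 (Slc2a3). Hexokinase traps it as glucose 6-phosphate, glucose phosphate isomerase turns this into fructose 6-phosphate, and phosphofructokinase adds the second phosphate in the step that commits the sugar to glycolysis. Aldolase splits the product and triosephosphate isomerase turns the other product of that split into glyceraldehyde 3-phosphate as well. Large cycling pre-B cells are known for active glucose use, and small resting pre-B cells for much less. Ikaros is a zinc finger transcription factor that drives the passage from the former to the latter.

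In the GENCODE mouse annotation of GRCm38, the build named mm10 in the processing notes, all 10 were protein-coding genes. The transporters were Slc2a1 (ENSMUSG00000028645) at chr4:119108711-119137983 on the plus strand and Slc2a3 (ENSMUSG00000003153) at chr6:122727809-122801640 on the minus strand. The hexokinases were Hk1 (ENSMUSG00000037012) at chr10:62268855-62379908 on the minus strand and Hk2 (ENSMUSG00000000628) at chr6:82725025-82774454 on the minus strand, and Gpi1 (ENSMUSG00000036427) at chr7:34201330-34230336 on the minus strand followed in the pathway. The phosphofructokinase subunits were Pfkl (ENSMUSG00000020277) at chr10:77986947-78010083 on the minus strand, Pfkm (ENSMUSG00000033065) at chr15:98092589-98132451 on the plus strand and Pfkp (ENSMUSG00000021196) at chr13:6579768-6648777 on the minus strand. The last steps belonged to Aldoa (ENSMUSG00000030695) at chr7:126795234-126800751 on the minus strand and Tpi1 (ENSMUSG00000023456) at chr6:124810586-124814296 on the minus strand. Aldoa and Tpi1 have processed pseudogene copies in this annotation, a processed pseudogene (Gm4482) lies within Slc2a3, and all of the 10 but Slc2a3 and Pfkl overlap an annotated gene on the opposite strand. Reads could have been divided or shared there, and these values carry that uncertainty.

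The 250 bases before the RefSeq start (GRCm38.p6) are given for Hk2, Pfkp, Pfkl and Slc2a1, the genes with the largest differences between the lines at 24 h. The windows are chr6:82774455-82774704 (minus strand), chr13:6648772-6649021 (minus strand), chr10:78009808-78010057 (minus strand) and chr4:119108495-119108744 (plus strand), each written 5′ to 3′ towards the gene. Capitals mark GGGAA, the core letters of the Ikaros motif, and ACGTG, the core letters of the hypoxia response element, on either strand, so that TTCCC and CACGT are the same letters read on the opposite strand.
Hk2: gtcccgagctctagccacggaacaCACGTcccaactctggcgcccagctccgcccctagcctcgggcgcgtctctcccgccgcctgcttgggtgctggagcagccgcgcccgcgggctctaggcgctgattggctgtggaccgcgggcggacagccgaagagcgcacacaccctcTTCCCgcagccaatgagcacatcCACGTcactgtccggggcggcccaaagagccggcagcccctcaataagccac
Pfkp: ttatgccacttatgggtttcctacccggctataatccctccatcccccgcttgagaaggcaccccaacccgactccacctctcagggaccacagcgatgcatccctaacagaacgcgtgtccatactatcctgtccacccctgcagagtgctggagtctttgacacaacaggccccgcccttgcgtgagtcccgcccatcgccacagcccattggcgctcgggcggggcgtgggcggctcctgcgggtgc
Pfkl: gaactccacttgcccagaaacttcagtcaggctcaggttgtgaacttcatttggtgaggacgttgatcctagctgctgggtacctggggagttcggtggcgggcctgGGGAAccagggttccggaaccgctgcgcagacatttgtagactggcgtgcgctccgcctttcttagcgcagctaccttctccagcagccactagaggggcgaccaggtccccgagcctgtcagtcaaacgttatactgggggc
Slc2a1: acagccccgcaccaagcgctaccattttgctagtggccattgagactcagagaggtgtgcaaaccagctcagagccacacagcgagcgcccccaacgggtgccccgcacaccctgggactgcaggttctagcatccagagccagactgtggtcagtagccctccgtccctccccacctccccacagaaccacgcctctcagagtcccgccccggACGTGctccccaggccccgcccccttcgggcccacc
In these windows GGGAA occurred 1 time before Hk2 and 1 time before Pfkl, and was not found before Pfkp or Slc2a1. The letters ACGTG occurred 2 times before Hk2 and 1 time before Slc2a1. Promoters of this length were listed for 9 of the 10 genes, in 15 windows because Aldoa, Hk1 and Pfkm have several starts, and GGGAA was found for 6 genes, ACGTG for 4, and the E-box letters CACGTG, which contain ACGTG, for Pfkm alone. Counted by window, 10 of the 15 held GGGAA, 6 held ACGTG and 1 held CACGTG. Among all 32851 promoter windows of this length, 56.2% held GGGAA, 16.6% held ACGTG and 6.02% held CACGTG, so GGGAA is common by itself. Several of the 15 windows belong to 1 gene and some overlap, so they are not separate, and the counts were not tested.

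Values are on the log2 scale of the deposited table, so a difference of 1 is a doubling. The authors corrected them for GC content and gene length. Levels of different genes are set side by side on that basis, which was not tested here. The order of levels and the isozyme shares below rest on it. The table median was 11.72 and all 10 genes lay above it. Ikzf1, the gene of Ikaros, had group means of 14.28 to 14.70 in control cells and 19.89 to 20.71 in Ikaros cells at every time, 0 h included. All 8 pre-B markers examined, such as Pax5 and Ebf1, were in the table with means of 10.52 to 18.38. Of the markers of other cells, Lyz2, Itgam and Klf1 were listed with means of 6.30 to 7.89, below the median gene. They were 2 of 4 myeloid markers and 1 of 3 erythroid markers looked up. The others were not found by symbol in the table, with 0 of 5 T cell and 0 of 3 fibroblast markers present. Batch 4 at 0 h stood apart: it held the lowest of the 3 values for 9 of the 10 genes in control cells and for 10 of 10 in Ikaros cells, with median differences from the other libraries of -0.55 and -0.68, whereas over all genes it was the lowest for 36.2% and 30.7%. In these bulk libraries less RNA per cell and fewer cells of a kind cannot be told apart.

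Over the course, 9 of the 10 genes were called higher in Ikaros cells at 2 h and all 10 were called lower at 24 h. Hk2 was the exception early, with differences of -0.29 at 2 h and -0.22 at 6 h that were not called. Calls were made in limma where the p adjusted over all 12762 genes was under 0.05. The share of all genes called higher at 2 h was 9.18%, and at 24 h 31.9% of all genes were called lower and 31.0% higher. In time order the median difference of the 10 genes was 0.34 (0 h), 0.63 (2 h), 0.41 (6 h), 0.17 (12 h), -0.73 (18 h) and -1.88 (24 h). Over all genes that median stayed between -0.03 and -0.0025. In control cells the means of a gene differed over the 6 times by 0.28 (Aldoa) to 1.14 (Slc2a1), and in Ikaros cells by 0.82 (Slc2a3) to 3.40 (Hk2).

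**Figure D1:**
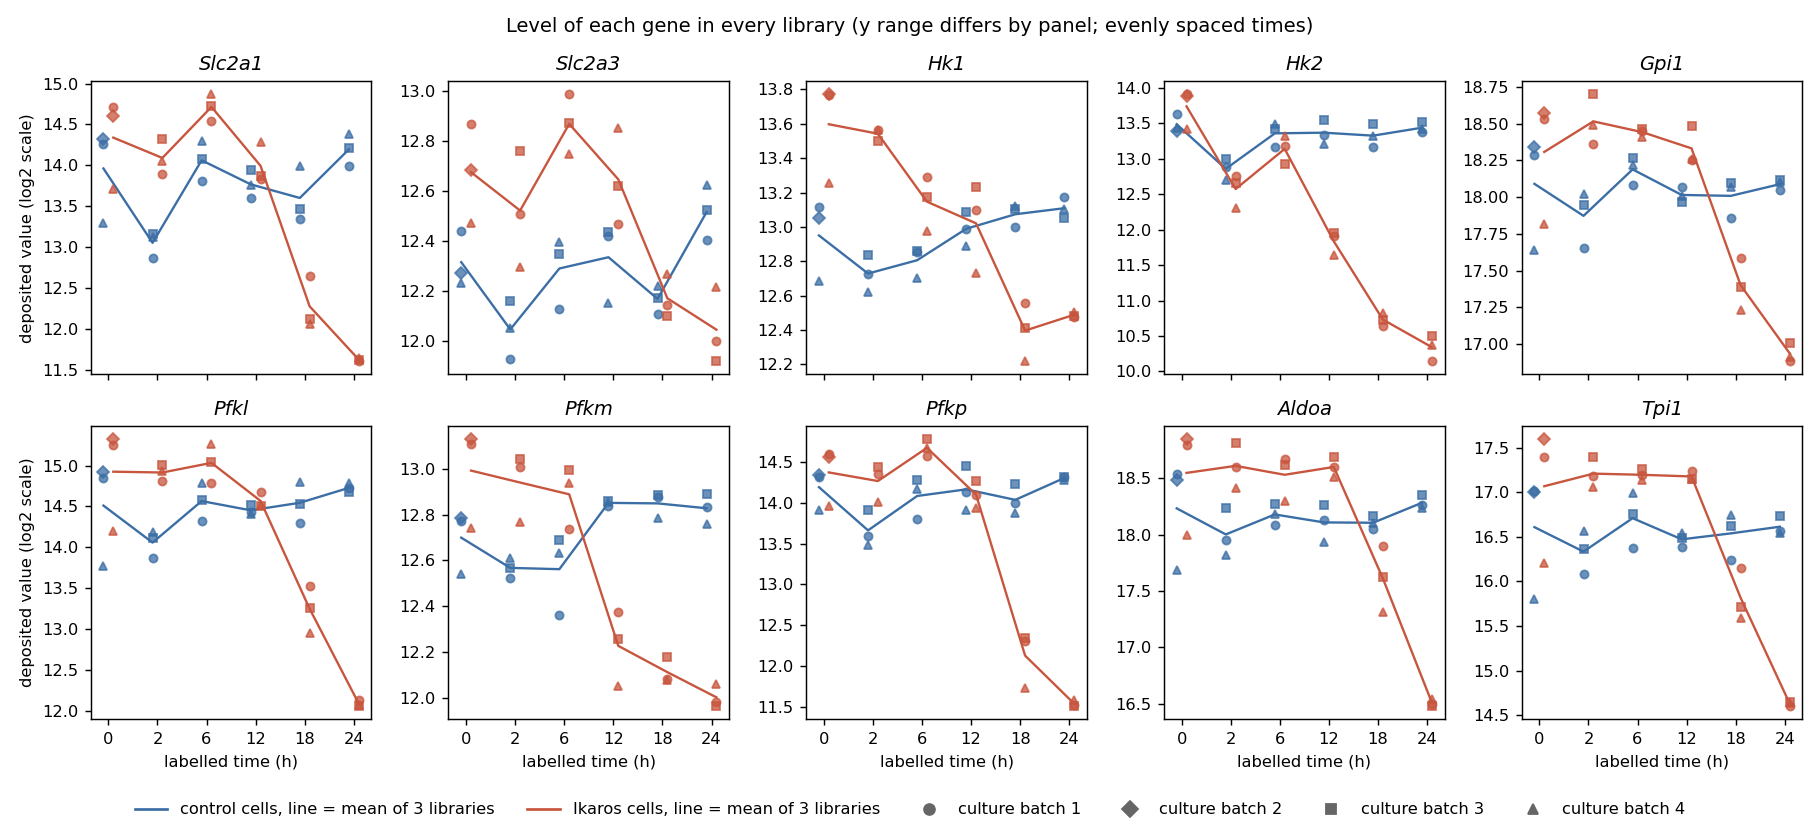
Level of each of the 10 genes on the deposited log2 scale (vertical axes, different ranges) in every library by labelled time in h (horizontal axes, evenly spaced), with control cells in blue and Ikaros cells in red, marker shapes for culture batches and lines through the means of 3 libraries. The red lines end below the blue ones in all 10 panels, with differences at 24 h from -0.47 (Slc2a3) to -3.10 (Hk2).

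**Figure D2:**
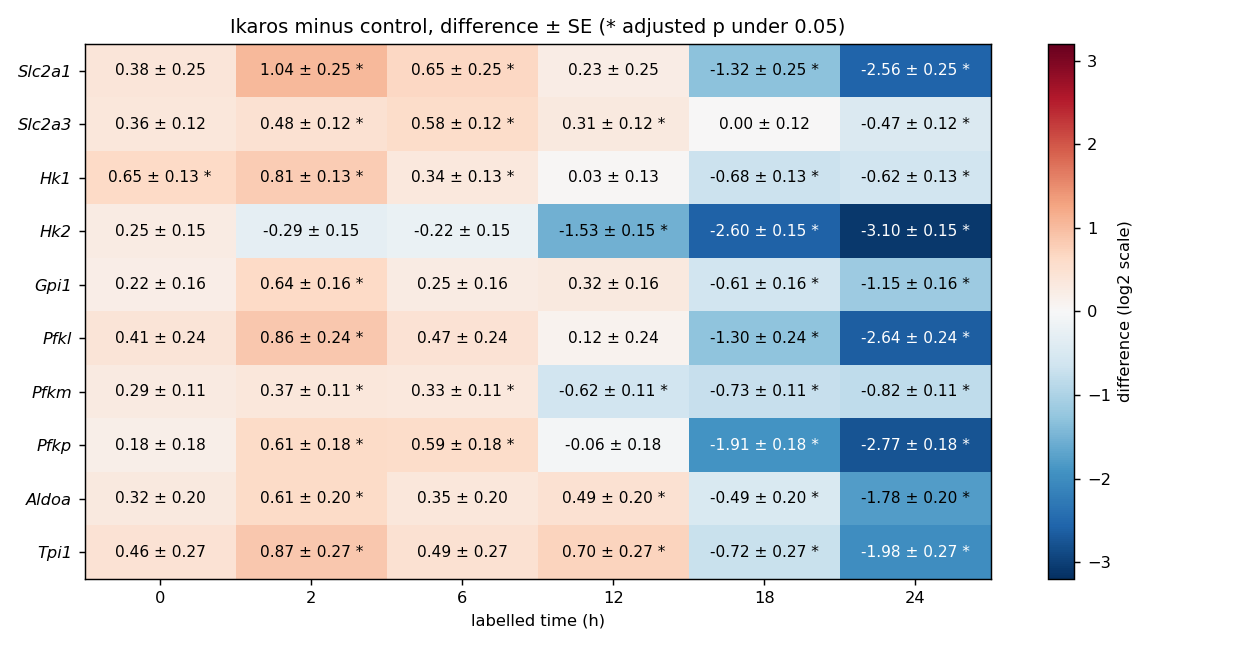
Difference between Ikaros and control cells with its standard error (log2 scale, colour and number) for each gene (rows) at each labelled time in h (columns), with an asterisk where the adjusted p was under 0.05. Red cells fill most of the columns from 0 to 6 h and blue cells the columns at 18 and 24 h, and the Hk2 row is blue from 2 h.

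Of the transporters, Slc2a1, the main basal glucose transporter of blood cells, had a larger difference at 24 h than Slc2a3, the high-affinity transporter. In control cells at 24 h Slc2a1 was 13.99, 14.21 and 14.39 in batches 1, 3 and 4, and in Ikaros cells it was 11.61, 11.63 and 11.65. The Ikaros libraries lay close together and well below every control library, a difference of -2.56 ± 0.25 (SE), or 5.92-fold lower (limma adjusted p = 8.67e-10). At 2 h the order was opposite, with 12.87, 13.16 and 13.13 in control cells and 13.90, 14.32 and 14.06 in Ikaros cells, 2.05-fold higher (difference 1.04 ± 0.25, limma adjusted p = 0.00333). At 18 h the difference was -1.32 ± 0.25 (limma adjusted p = 4.78e-05).

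Slc2a3 was 12.40, 12.53 and 12.62 in control cells at 24 h and 12.00, 11.92 and 12.22 in Ikaros cells. The groups did not overlap, but the gap was small, -0.47 ± 0.12 or 1.39-fold lower (limma adjusted p = 0.00179). This was the smallest of the 10 differences at 24 h, and without replicate 2 (batch 3 at the later times) it was no longer called, with a limma adjusted p of 0.0809. At 6 h Slc2a3 was higher in Ikaros cells, at 12.99, 12.87 and 12.75 against 12.13, 12.35 and 12.40 (difference 0.58 ± 0.12, limma adjusted p = 0.000598). At 18 h the groups overlapped and the difference was 0.00, with a 95% interval of -0.25 to 0.26.

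Hk1 is the housekeeping form and Hk2 the form induced in growing cells, and both sit on the outer mitochondrial membrane. Hk2 in control cells at 24 h was 13.38, 13.53 and 13.42, and in Ikaros cells 10.15, 10.50 and 10.38. No library of one line came near one of the other, and the difference of -3.10 ± 0.15, 8.57-fold lower (limma adjusted p = 6.99e-16), was the largest of the 10. Among all genes Hk2 ranked 155 of 12762 from the most negative difference at 24 h.

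Hk2 was the one gene of the 10 called between 0 and 2 h in Ikaros cells. In Ikaros cells it was 13.91, 13.89 and 13.42 at 0 h and 12.76, 12.66 and 12.30 at 2 h. The groups did not overlap and the step was -1.17 ± 0.15 (limma adjusted p = 2.05e-06). Control cells also had lower Hk2 at 2 h than at 0 h, 12.89, 12.99 and 12.70 against 13.64, 13.39 and 13.43 (difference -0.63 ± 0.15, not called, limma adjusted p = 0.178). The further change in Ikaros cells relative to control was -0.54 ± 0.21 and was not called (limma adjusted p = 0.211). From 2 to 6 h Hk2 in Ikaros cells came back by 0.57 ± 0.15 (limma adjusted p = 0.0116), to 13.18, 12.92 and 13.32, a call that was lost without any one of the 3 replicates. Control cells had a similar value over that interval, 0.50 ± 0.15, from the 2 h libraries above to 13.16, 13.42 and 13.49, and it was not called (limma adjusted p = 0.201). At 12 h it was 11.92, 11.95 and 11.65 against 13.34, 13.56 and 13.21 in control cells, 2.89-fold lower (difference -1.53 ± 0.15, limma adjusted p = 2.37e-09), when Pfkm was the only other of the 10 called lower.

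Hk1 was the one gene called at 0 h. It was 13.77, 13.77 and 13.25 in Ikaros cells in batches 1, 2 and 4 and 13.11, 13.05 and 12.69 in control cells. Ikaros was higher in each batch, and the groups did not overlap (difference 0.65 ± 0.13, limma adjusted p = 0.00148). By 24 h Hk1 stood at 12.48, 12.48 and 12.51 in Ikaros cells against 13.17, 13.05 and 13.10, 1.54-fold lower (difference -0.62 ± 0.13, limma adjusted p = 0.000209). Its difference at 18 h, -0.68 ± 0.13, was of the same size.

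Gpi1, the isomerase between glucose 6-phosphate and fructose 6-phosphate, had the highest or next highest level of the 10 genes in both lines. Its values at 24 h were 18.05, 18.12 and 18.10 in control cells and 16.89, 17.01 and 16.92 in Ikaros cells. The gap exceeded the spread in either line by far, -1.15 ± 0.16 or 2.22-fold lower (limma adjusted p = 7.70e-07). At 2 h Gpi1 was higher in Ikaros cells, at 18.36, 18.70 and 18.49 against 17.65, 17.95 and 18.02 (difference 0.64 ± 0.16, limma adjusted p = 0.00570).

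The 3 phosphofructokinase subunits, named for liver (Pfkl), muscle (Pfkm) and platelet (Pfkp), assemble into the tetramers that catalyse the committed step. Pfkl was 14.73, 14.67 and 14.78 in control cells at 24 h and 12.14, 12.06 and 12.07 in Ikaros cells. Pfkp was 14.33, 14.32 and 14.28 in control cells and 11.52, 11.51 and 11.57 in Ikaros cells. These 2 subunits were lower to a similar extent, 6.22-fold lower for Pfkl (difference -2.64 ± 0.24, limma adjusted p = 4.12e-10) and 6.84-fold lower for Pfkp (difference -2.77 ± 0.18, limma adjusted p = 5.72e-13). Pfkm was 12.83, 12.89 and 12.76 in control cells and 11.98, 11.97 and 12.06 in Ikaros cells, 1.77-fold lower (difference -0.82 ± 0.11, limma adjusted p = 1.58e-07).

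The muscle subunit also kept a different time course. At 12 h Pfkm was already lower in Ikaros cells, at 12.38, 12.26 and 12.05 against 12.84, 12.86 and 12.86 (difference -0.62 ± 0.11, limma adjusted p = 2.42e-05). At that time Pfkl and Pfkp overlapped between the lines, with differences of 0.12 (95% interval -0.38 to 0.62) and -0.06 (-0.44 to 0.31). At 18 h Pfkp was 12.31, 12.34 and 11.73 in Ikaros cells and 14.00, 14.23 and 13.88 in control cells, 3.77-fold lower, and Pfkl was 2.46-fold lower. At 2 h all 3 were higher in Ikaros cells, by 0.86 ± 0.24 for Pfkl, 0.61 ± 0.18 for Pfkp and 0.37 ± 0.11 for Pfkm (limma adjusted p = 0.0135, 0.0201 and 0.0138).

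Aldoa, the aldolase of muscle and of most other cells, and Tpi1 were among the most abundant of the 10 and ran in parallel, with r = 0.993 across the 12 group means. Aldoa at 24 h was 18.27, 18.35 and 18.23 in control cells and 16.50, 16.48 and 16.54 in Ikaros cells. Tpi1 was 16.56, 16.74 and 16.54 in control cells and 14.60, 14.65 and 14.64 in Ikaros cells. The Ikaros libraries differed from each other by less than 0.1 for both genes, and the differences were -1.78 ± 0.20 for Aldoa (3.43-fold lower, limma adjusted p = 1.27e-08) and -1.98 ± 0.27 for Tpi1 (3.96-fold lower, limma adjusted p = 4.51e-07). Both were still higher in Ikaros than in control cells at 12 h, Aldoa by 0.49 ± 0.20 and Tpi1 by 0.70 ± 0.27 (limma adjusted p = 0.0431 and 0.0357), and both calls were lost without replicate 1 (batch 1) or replicate 2. At 18 h they were lower by small amounts, 1.41-fold and 1.65-fold (limma adjusted p = 0.0343 and 0.0250). The Aldoa call at 18 h was lost without replicate 1 or replicate 2, and the Tpi1 and Gpi1 calls at 18 h without replicate 2.

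At 0 h 1 of 10 genes was called higher in Ikaros cells, against 4.61% of all genes, and all 10 differences were above 0, from 0.18 (Pfkp) to 0.65 (Hk1). Within batches, 29 of the 30 paired differences of these genes were above 0. They come from 10 genes that vary together in the same 3 batches, so they are not 30 separate observations. No share of all genes is given for them. When culture batches entered the fit as replicate blocks, with separate blocks for the 0 h cultures, 5 of the 10 genes were called higher at 0 h, Slc2a3 (adjusted p = 0.0473), Pfkm (0.0306), Aldoa (0.0494) and Tpi1 (0.0472) joining Hk1. The 4.61%, like every share of called genes given here, is from the fit without blocks. It is therefore not the share to set beside these 5. The Hk1 call at 0 h was lost without replicate 1 or replicate 2, and without replicate 3 (batch 4) 2 genes were called.

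The higher level at 2 h went with a low level in control cells. Control means were lowest at 2 h for 9 of the 10 genes, Pfkm being the exception, and all 10 control means were below those at 0 h, with differences from -0.13 (Pfkm) to -0.91 (Slc2a1). The median of these differences was -0.27, against -0.0023 over all genes. How many of all genes had their lowest control mean at 2 h is not given here. The control mean at 2 h is itself a term of the difference between the lines at 2 h. In control cells 0 of 10 genes was called lower at 2 h than at 0 h (limma, 0.0157% of all genes), with 4 at an unadjusted p under 0.05, and 2 were called, Slc2a1 and Pfkl, when batch 4 at 0 h was left out. In Ikaros cells 1 of 10 genes was called lower at 2 h than at 0 h, against 9.61% of all genes, and it was Hk2. The change of the difference between the lines from 0 h to 2 h was called higher for 0 of 10 genes in limma, against 1.21% of all genes, with 1 of the 10, Hk2 in the opposite direction, at an unadjusted p under 0.05. Lyz2, a myeloid marker, was also higher in Ikaros cells at these times, with 9.37 ± 0.52 (SD, n = 3) against 6.43 ± 0.24 at 0 h and 9.34 ± 0.45 against 6.68 ± 0.99 at 2 h, and its part in the result was not tested. In each of the 3 batches the Ikaros library was above its paired control library at 2 h for the 9 genes other than Hk2, and all 3 Ikaros libraries were above all 3 control libraries for those 9 genes, against 13.4% of all genes. The count of 9 calls at 2 h fell to 1, Hk1, without replicate 1 and to the same gene without replicate 2, and to 4 (Slc2a1, Hk1, Pfkl and Tpi1) when only the 2 h groups were fitted.

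Later control levels were compared with those at 2 h. From 2 to 6 h 0 of 10 genes was called higher in control cells in limma, against 0.0392% of all genes, with 4 at an unadjusted p under 0.05, and with the batch blocks Slc2a1 was called (adjusted p = 0.00646). From 2 to 24 h 1 of 10 was called higher in control cells, against 0.251% of all genes: Slc2a1 rose by 1.14 ± 0.25 (limma adjusted p = 0.0365). With the batch blocks 6 of the 10 were called over that interval, Slc2a3, Hk1, Hk2, Pfkl and Pfkp joining Slc2a1 with adjusted p between 0.0100 and 0.0454. The shares of 0.0392% and 0.251% are from the fit without blocks, and none is given for the block fit. The Slc2a1 call was lost without replicate 1 or replicate 2.

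Between the lines at 6 h, 5 of 10 genes were called higher in Ikaros cells, against 18.1% of all genes: Slc2a1, Slc2a3, Hk1, Pfkm and Pfkp. With the batch blocks Gpi1, Pfkl, Aldoa and Tpi1 were added, with adjusted p between 0.00831 and 0.0319, to make 9. The 18.1% is from the fit without blocks. Without replicate 1 there were 0 and without replicate 2 there was 1 (Slc2a3), whereas 8 were called without replicate 3 and also without the batch 4 libraries of 0 h alone. At 12 h 3 of 10 were called higher, Slc2a3, Aldoa and Tpi1, against 23.0% of all genes, and 2 were called lower, Hk2 and Pfkm, against 22.8%. Of these 5 calls, 3 remained without replicate 1 (Slc2a3, Hk2 and Pfkm) and 2 without replicate 2 (Hk2 and Pfkm). Without replicate 3 the Slc2a3 call was lost (0.12, adjusted p = 0.437) and Gpi1 was called (0.35, adjusted p = 0.0469), so that the count stayed at 5. At 18 h 9 of 10 were called lower, against 29.2% of all genes, all but Slc2a3.

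At 24 h the groups did not overlap for any of the 10 genes, and the Ikaros libraries were below all control libraries in every case, against 36.1% of all genes. All 30 paired differences within batches were negative, from -3.23 to -0.40, and these too are not 30 separate observations. The change of the difference from 2 h to 24 h was called lower for 10 of 10 genes, against 24.0% of all genes, and ranged from -3.60 ± 0.35 for Slc2a1 to -0.95 ± 0.18 for Slc2a3. From 0 h to 24 h it was also called lower for 10 of 10, against 24.2%. Among markers of other cells, Itgam was 5.11 ± 0.31 (SD, n = 3) in control and 9.35 ± 0.24 in Ikaros cells at 24 h, Lyz2 was 7.61 ± 0.94 and 4.68 ± 0.60, and Klf1 was 7.91 ± 0.44 and 8.15 ± 0.26. They moved in different directions, and their part in the results was not tested.

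Within Ikaros cells the interval from 12 to 18 h held the most calls, although Pfkm and Hk2 had their largest step before it and Aldoa after it. In the step from 2 to 6 h 1 of 10 genes was called higher (Hk2, against 5.58% of all genes in the fit without blocks). With the batch blocks 5 were called, Slc2a1, Slc2a3 and Pfkp higher and Hk1 lower (adjusted p = 0.00894, 0.0446, 0.0262 and 0.00441) beside Hk2. From 6 to 12 h 4 of 10 were called lower, against 9.87% of all genes, namely Slc2a1, Hk2, Pfkm and Pfkp. The Slc2a1 and Pfkp calls were lost without replicate 1 or replicate 2, which left 2. From 12 to 18 h 9 of 10 were called lower, against 13.5% of all genes, Pfkm being the exception at -0.11 (95% interval -0.33 to 0.10). Without replicate 2 the Slc2a3, Hk1 and Tpi1 calls were lost, which left 6. The largest steps of that interval were those of Pfkp (-1.98 ± 0.18), Slc2a1 (-1.71 ± 0.25) and Tpi1 (-1.36 ± 0.27).

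From 18 to 24 h 3 of 10 were called lower, against 4.13% of all genes, and these were Pfkl, Aldoa and Tpi1 (-1.16 ± 0.24, -1.11 ± 0.20 and -1.19 ± 0.27, limma adjusted p = 0.00349, 0.000775 and 0.00730). With the batch blocks 6 were called, Slc2a1, Gpi1 and Pfkp being added (adjusted p = 0.00949, 0.00210 and 0.00280). The 4.13% is from the fit without blocks. Without replicate 1, and again without replicate 2, the count was 0, and without replicate 3 it was 6.

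Measured as shares of each gene's change in Ikaros cells from 6 to 24 h, the genes differed in when they moved. Pfkm made 74.6% of its change from 6 to 12 h and Hk2 46.6%. Slc2a1, Slc2a3, Gpi1 and Pfkp made 55.6% to 62.9% of theirs from 12 to 18 h, and Hk1 made 94.9%. The Hk1 change counted here was -0.66. It leaves out the Hk1 step of -0.40 from 2 to 6 h and includes a rise of 0.09 after 18 h. Tpi1 made 53.0% from 12 to 18 h and 46.3% after 18 h, and Pfkl 44.8% and 39.4%. Aldoa alone had its largest step after 18 h, at 54.6% against 48.9% from 12 to 18 h. These shares describe group means and were not compared by a test.

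**Figure D3:**
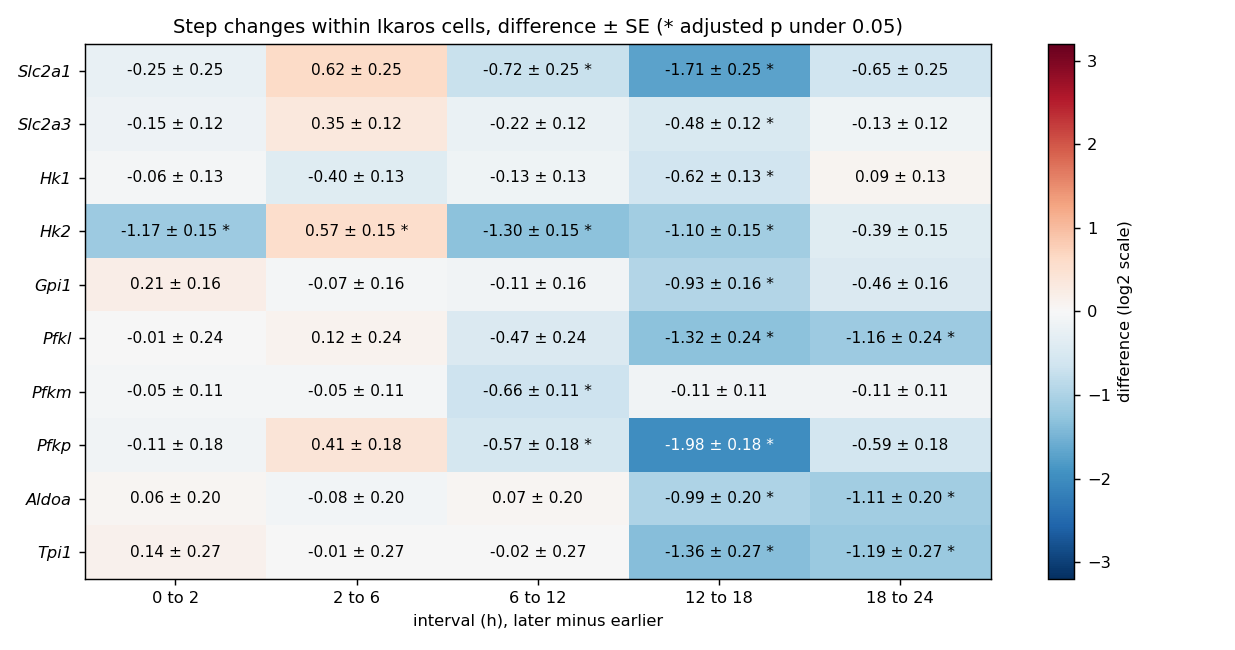
Difference with its standard error (log2 scale, colour and number) between consecutive times within Ikaros cells for each gene (rows) and interval in h (columns), with an asterisk where the adjusted p was under 0.05. The column from 12 to 18 h carries 9 asterisks, and the Hk2 row also shows the step of -1.17 from 0 to 2 h and the return of 0.57 from 2 to 6 h.

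Isozymes of one step differed in how far they fell. The log2 ratio of 2 isozymes was compared over the 18 and 24 h libraries by an exact two-sided permutation test within each time, adjusted over 5 ratios, with 0.005 as the smallest p that its 400 relabellings allow. The 6 pairs of libraries come from 3 culture batches, each used at both times, and so are not 6 separate cultures. When the signs of the 6 paired differences were flipped, the exact p adjusted over the 5 ratios was 0.0521 for Hk2 over Hk1, Slc2a3 over Slc2a1 and Pfkm over Pfkp, and 0.0625 for both ratios of Pfkl, so that none passed 0.05. With each batch taken as 1 unit, the exact p was 0.25 for all 5 ratios, the smallest that 3 batches allow. Hk2 relative to Hk1 was 0.20, 0.47 and 0.32 in control cells at 24 h and -2.33, -1.98 and -2.13 in Ikaros cells, and over both times the difference of the log2 ratio was -2.20 (exact p = 0.005, adjusted p = 0.00833, in 6 of 6 batch pairs). Hk2 thus made up 55.7% ± 2.32 (SD, n = 3) of the summed hexokinase signal in control cells and 18.5% ± 1.82 in Ikaros cells at 24 h.

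Slc2a3 relative to Slc2a1 differed in the other direction. The ratio was -1.59, -1.69 and -1.76 in control cells at 24 h and 0.39, 0.29 and 0.56 in Ikaros cells, and over both times it was higher by 1.71 (exact p = 0.005, adjusted p = 0.00833, in 6 of 6 pairs). Slc2a3 was 23.8% ± 1.10 of the summed signal of the 2 transporters in control cells and 57.1% ± 2.31 in Ikaros cells, although its own level was lower there.

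For phosphofructokinase, Pfkm relative to Pfkp was higher in Ikaros cells by 1.56 over both times (exact p = 0.005, adjusted p = 0.00833, in 6 of 6 pairs). Its value at 24 h was -1.49, -1.43 and -1.52 in control cells and 0.46, 0.46 and 0.49 in Ikaros cells. Pfkl relative to Pfkm differed by -1.19 (exact p = 0.01, adjusted p = 0.0125, in 5 of 6 pairs), and Pfkl relative to Pfkp was higher by 0.38 (exact p = 0.015, adjusted p = 0.015, in 5 of 6 pairs). At 18 h Pfkl relative to Pfkp was 1.12 ± 0.18 (SD, n = 3) in Ikaros and 0.51 ± 0.36 in control cells. The lowest Ikaros library and the highest control library were both at 0.92 at that time. At 24 h the ratio was 0.55 ± 0.06 in Ikaros and 0.42 ± 0.08 in control cells, and the groups overlapped. Pfkl relative to Pfkm went from 1.13 ± 0.29 in Ikaros and 1.70 ± 0.30 in control cells at 18 h, where the libraries overlapped, to 0.16, 0.09 and 0.01 in Ikaros libraries against 1.89, 1.78 and 2.02 in control libraries at 24 h. The 3 subunits Pfkl, Pfkm and Pfkp held 49.6%, 13.3% and 37.1% of their summed signal in control cells at 24 h, and 38.1%, 35.9% and 25.9% in Ikaros cells.

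**Figure D4:**
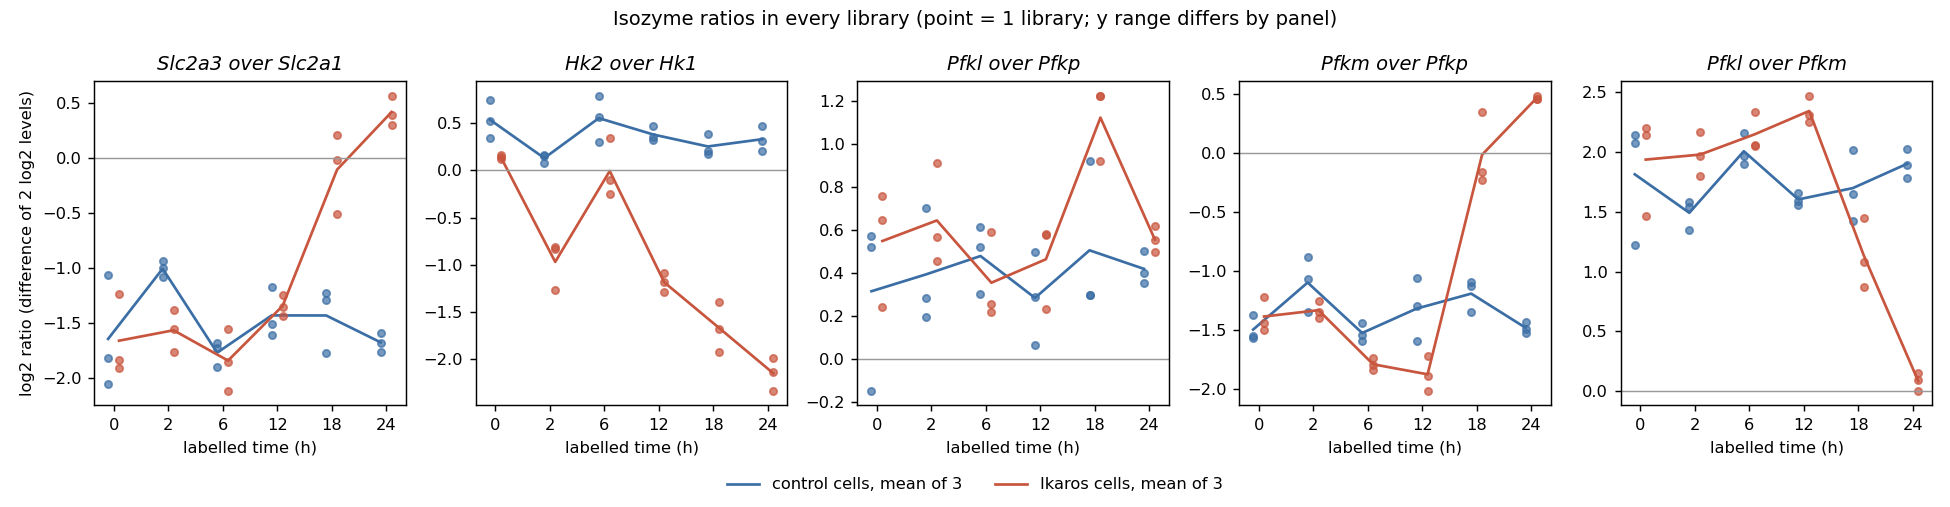
Log2 ratio of 2 isozymes (vertical axes, different ranges) in every library by labelled time in h (horizontal axes), with control cells in blue, Ikaros cells in red and lines through the means of 3 libraries. At 24 h the Ikaros points lie apart from the control points for 4 of the 5 ratios, Hk2 over Hk1 at or below -1.98 and Slc2a3 over Slc2a1 above 0.

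The order of the levels changed as well. In control cells at 24 h the order was Aldoa (18.28), Gpi1 (18.09), Tpi1 (16.61), Pfkl (14.73), Pfkp (14.31), Slc2a1 (14.20), Hk2 (13.44), Hk1 (13.11), Pfkm (12.83) and Slc2a3 (12.52). Each gene was apart from the next in all 3 libraries other than Pfkp and Slc2a1, which overlapped. In Ikaros cells the order was Gpi1 (16.94), Aldoa (16.51), Tpi1 (14.63), Hk1 (12.49), Pfkl (12.09), Slc2a3 (12.05), Pfkm (12.00), Slc2a1 (11.63), Pfkp (11.53) and Hk2 (10.34). Pfkl, Slc2a3 and Pfkm did not differ beyond their spread, and Hk2 had moved from the seventh place to the last.

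Around these 10 genes, 5 lists of related genes were read in the same fit and are described at 24 h by counts and by the median difference, beside a median of -0.01 over all genes and calls in 31.9% of all genes lower and 31.0% higher. Of 7 other isozymes and transporters of the upper pathway, 4 were called lower and 2 higher, with a median of -0.87. Fbp1, the fructose bisphosphatase that runs the phosphofructokinase step backwards, had a difference of -3.39 ± 0.22, the ADP-dependent glucokinase Adpgk -1.24 ± 0.15 and the brain aldolase Aldoc -1.11 ± 0.31 (limma adjusted p = 5.55e-13, 6.36e-08 and 0.00331). The fructose transporter Slc2a5 (1.46 ± 0.38) and the intracellular transporter Slc2a8 (0.96 ± 0.18) were higher (limma adjusted p = 0.00179 and 5.44e-05). Aldoc was a low gene, at 6.92 in control cells.

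Among 6 regulators of the pathway, 2 were called higher and 2 lower, with a median of -0.06, shares near those of all genes. Txnip, which removes glucose transporters from the cell surface, was higher by 1.58 ± 0.21, and Pfkfb4, one of the enzymes that set fructose 2,6-bisphosphate, the activator of phosphofructokinase, by 1.63 ± 0.30 (limma adjusted p = 2.87e-07 and 3.04e-05). Its relatives Pfkfb1 and Pfkfb3 were lower, with differences of -0.81 ± 0.15 and -0.55 ± 0.24 (limma adjusted p = 2.72e-05 and 0.0438). At 2 h 1 of the 6 was called higher, against 9.18% of all genes, and 2 were called lower, against 1261 of 12762 genes. The median of the 6 was then -0.34. Pfkfb4 was the 1 called higher, by 1.59, and was a low gene, at 7.01 in control cells.

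Of 9 genes of lower glycolysis and lactate handling, 8 were called lower and 1 higher, with a median of -1.47, against 31.9% and 31.0% of all genes. The lactate exporter Slc16a3 (-4.77 ± 0.52), lactate dehydrogenase Ldha (-2.91 ± 0.22) and enolase Eno1 (-2.12 ± 0.14) had the most negative differences (limma adjusted p = 9.74e-09, 8.07e-12 and 1.04e-12), and the monocarboxylate transporter Slc16a1 was higher by 1.96 ± 0.16 (limma adjusted p = 4.66e-11). At 2 h 4 of the 9 were called higher, against 9.18% of all genes, and Slc16a3 was higher by 2.57.

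Of 5 transcription factors known for glycolytic genes, 3 were called higher and 1 lower at 24 h, against 31.0% and 31.9% of all genes. Myc, an activator of many of these genes, was lower, with a difference of -2.52 ± 0.17 at 24 h and already -1.63 ± 0.17 at 2 h (limma adjusted p = 5.99e-13 and 4.97e-08). Foxo1, a factor of resting B cell precursors, was higher by 2.13 ± 0.09, Mlxip by 1.36 ± 0.13 and its partner Mlx by 0.38 ± 0.12 (limma adjusted p = 5.60e-17, 1.57e-09 and 0.00803). Hif1a, the hypoxia factor, was not called at 24 h (0.54 ± 0.28, limma adjusted p = 0.0914) but was called higher in Ikaros cells at 6 h (1.03 ± 0.28, adjusted p = 0.00458) and 18 h (0.76 ± 0.28, adjusted p = 0.0203). Of 7 genes of side branches of the upper pathway, 5 were called lower and 1 higher with a median of -0.62, against the same shares of all genes, among them G6pc3 (-0.92 ± 0.12), Gpd2 (-0.91 ± 0.16), Pgm2 (-0.88 ± 0.23) and Gpd1 (0.99 ± 0.41), with limma adjusted p of 3.32e-07, 1.27e-05, 0.00169 and 0.0397. Gpd1 and Gpd2 act at dihydroxyacetone phosphate and the others named at glucose phosphates. Gpd1 was a low gene, at 5.85 in control and 6.83 in Ikaros cells at 24 h.

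**Figure D5:**
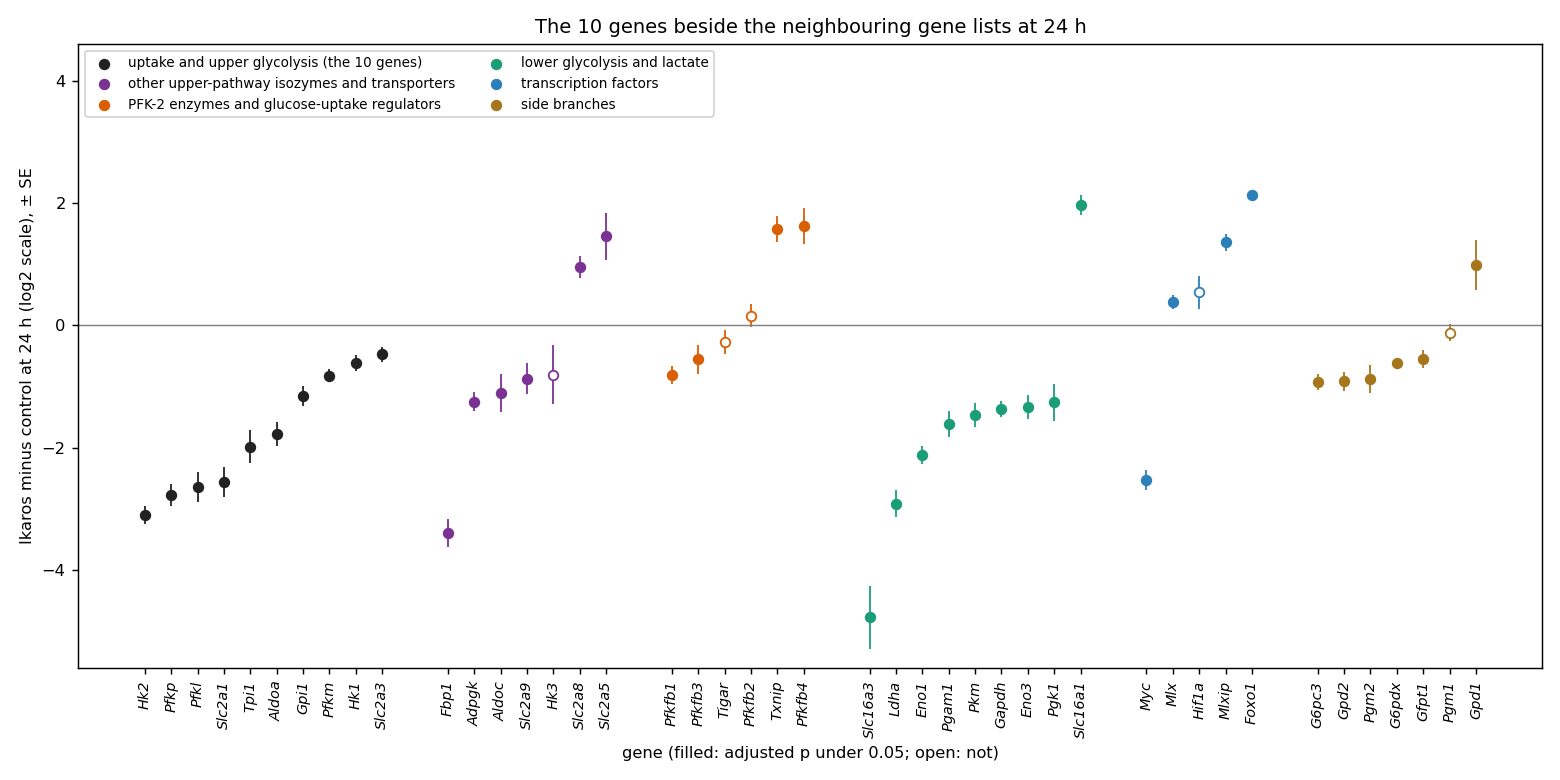
Difference between Ikaros and control cells at 24 h with its standard error (vertical axis, log2 scale) for the 10 genes (black) and for the genes of 5 related lists (colours), sorted within each list, with filled points where the adjusted p was under 0.05. All 10 black points are below 0, as are 8 of the 9 genes of lower glycolysis and lactate handling, and the other lists have points on both sides.

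Across the 12 group means the 10 genes resembled each other to different degrees, the 45 pairwise correlations running from 0.38 (Slc2a3 with Hk2) to 0.99 with a median of 0.81. These correlations, and those that follow, describe the same 36 libraries and the shared fall in Ikaros cells, and carry no test. Outside the 10, Slc16a3 was among the 2 most alike genes for Slc2a1 (r = 0.978), Gpi1 (r = 0.987) and Pfkl (r = 0.986). Gpi1 was closest to Higd1a (r = 0.990) and Pfkl to Fam162a (r = 0.988), while Slc2a1 had Ddx39b as its second (r = 0.959). Tpi1 was closest to Pdk1, a kinase that shuts off pyruvate dehydrogenase (r = 0.977), and to Gapdh (r = 0.975), and Aldoa to Prelid1 (r = 0.984) and the pyruvate kinase Pkm (r = 0.981).

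The genes with other time courses had other neighbours. Hk2 was closest to Aifm1 (r = 0.984) and Man1a2 (r = 0.978), and Pfkp to Sgsm2 (r = 0.983) and the asparagine synthetase Asns (r = 0.971). For Pfkm they were Nek1 (r = 0.972) and Stag1 (r = 0.970), for Hk1 St14 (r = 0.956) and Fxyd5 (r = 0.933), and for Slc2a3 the kinase Map2k1 (r = 0.937) and the arylsulfatase Arsb (r = 0.923).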

How the data were processed

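Messenger RNA of control and Ikaros B3 cells was sequenced in 36 libraries from strand-specific kits. To make the table, the authors mapped reads with TopHat2 to mm10, counted them per gene by HTSeq, and then ran cqn, which corrects for GC content and length, followed by non-parametric ComBat on the library preparations. What was deposited is thus a log2 value per gene and library (cqn works in base 2, which the table does not state), shifted so that the lowest is 1. The methods give a target depth, but since the files used hold no counts the actual depth is unknown, precision is limited by 3 libraries per group, and the batch adjustment made before deposition may make standard errors too small. The strand setting of the counting was not given in the sources used here.

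Here limma 3.58.1 in R 4.3.3 fitted a mean for each of the 12 groups over 12762 genes, with Benjamini-Hochberg adjustment over all genes. Isozyme ratios were compared by an exact permutation test within times, which treats libraries of 1 culture batch at both times as separate. Control cells 2 h against 0 h, control cells 6 h against 2 h and the change of the difference from 0 h to 2 h were added after the data were seen. The 10 genes and all lists were chosen with earlier results of these data known. Genes outside the 10 were named by rule: up to 3 called at 24 h in each direction from each list, the 2 genes most correlated with each of the 10 across group means, and Ikzf1. Hif1a at all times, and the Slc16a3, Pfkfb4 and Myc values at 2 h, were picked out after their values were seen.

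Control and Ikaros cultures share batch numbers in the labels, and these pair the libraries. Deviations of paired libraries from their group means correlated over all genes between -0.06 and 0.51 in 18 pairs, with a median of 0.13 and 12 pairs above 0.1. Alternatives were batch blocks, a filter at the 25th percentile of mean value, quantile normalization, eBayes with trend and robust settings, fits of the compared groups alone, each replicate left out, sign flips of paired ratios, and, added later, batch 4 at 0 h left out and ratios with the batch as the unit. Gene positions came from GENCODE M21 and promoter sequences from RefSeq, both on GRCm38. 1 marker of the pre-B list is not reported here.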

Additional observations from a re-analysis of the deposited data

Results flagged for a closer look

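The difference between Ikaros and control cells itself differed between times for all 10 genes, by the interaction contrast in limma, called at an adjusted p under 0.05 over all genes. From 2 to 24 h the difference moved by -3.60 for Slc2a1, -0.95 for Slc2a3, -1.43 for Hk1, -2.81 for Hk2 and -1.79 for Gpi1, and by -3.49 for Pfkl, -1.19 for Pfkm, -3.38 for Pfkp, -2.39 for Aldoa and -2.86 for Tpi1, on the log2 scale. From 0 to 24 h it moved by -2.94 for Slc2a1, -0.83 for Slc2a3, -1.27 for Hk1, -3.35 for Hk2 and -1.37 for Gpi1, and by -3.05 for Pfkl, -1.12 for Pfkm, -2.95 for Pfkp, -2.09 for Aldoa and -2.44 for Tpi1. Every one of these changes was negative, and the share of all genes called lower in the same contrasts was 24.0% and 24.2%. Both contrasts share the 24 h libraries, so the second set is not separate evidence. The 0 h cultures were collected apart from the others, and in both lines batch 4 at 0 h lay low for these genes. Hk2 was the one gene whose change from 0 h was larger than that from 2 h, and this difference was called in limma neither way (-0.54 from 0 to 2 h, adjusted p = 0.211).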

How the results depend on the processing

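The calls of all 10 genes at 24 h and for both changes to 24 h were kept under every alternative, except Slc2a3 at 24 h without replicate 2. The counts of calls at 2, 18 and 24 h, from 6 to 12 h and from 12 to 18 h in Ikaros cells stayed within 1.5 times the reported ones under the block fits, the filter, quantile normalization and the eBayes settings. With the replicate block that has separate 0 h blocks, 5 genes were called at 0 h, 9 at 6 h, 5 from 2 to 6 h and 6 from 18 to 24 h in Ikaros cells, and 6 from 2 to 24 h and 1 from 2 to 6 h in control cells. With 1 common replicate block the counts were 3 from 2 to 6 h, 5 from 18 to 24 h and 2 from 2 to 24 h in control cells. Every share of called genes given above is from the main fit, with all libraries and no blocks. None is given for the alternative fits of this section, so whether calls over all genes shifted alike is not shown. Neither block fit turned a called direction, lost a call of a single gene or moved another count by over 1.5 times, and Ikaros cells at 2 h against 0 h could not be fitted with separate 0 h blocks, nor could control cells. The isozyme ratios kept their values but not their calls under the replicate block: with sign flips of the pairs, Slc2a3 minus Slc2a1 (1.71), Hk2 minus Hk1 (-2.20) and Pfkm minus Pfkp (1.56) had an adjusted exact p of 0.0521, and Pfkl minus Pfkp (0.38) and Pfkl minus Pfkm (-1.19) of 0.0625. With the culture batch as the unit, chosen after the data were seen, the exact p was 0.25 for each, the smallest possible, so this says nothing about stability.

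When only the compared groups were fitted, the count was 0 at 0 h, 4 at 2 h, 1 at 6 h, 0 from 2 to 6 h and 1 from 6 to 12 h in Ikaros cells and 0 from 2 to 24 h in control cells. The filter and the eBayes settings each gave 2 from 2 to 6 h. Without batch 4 at 0 h, chosen after the data were seen, 8 genes were called at 6 h, 3 from 2 to 6 h, 6 from 18 to 24 h, and in control cells 2 from 2 to 24 h, 2 from 0 to 2 h and 1 from 2 to 6 h. With each replicate left out, 24 libraries remained and the counts ranged from 0 to 2 at 0 h, 1 to 9 at 2 h, 0 to 8 at 6 h, 2 to 5 at 12 h, 6 to 9 at 18 h, 9 to 10 at 24 h, 0 to 1 from 2 to 6 h, 2 to 5 from 6 to 12 h, 6 to 9 from 12 to 18 h, 0 to 6 from 18 to 24 h, and in control cells 0 to 1 from 2 to 24 h and 0 to 2 from 0 to 2 h. The cause of these shifts was not tested, beyond the loss of samples where groups or replicates were left out.

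Of 1680 values of single genes, 25 had the opposite sign under an alternative, and 0 of them were called in either fit. For Ikaros cells at 2 h against 0 h these were, without batch 4 at 0 h, Gpi1 (-0.036), Aldoa (-0.21) and Tpi1 (-0.29), and with the replicate block Pfkl (0.19). Quantile normalization gave 0.00095 for Tpi1 from 2 to 6 h. With each replicate left out, the differences between the lines ranged from -0.024 to 0.13 for Hk1 at 12 h and from -0.020 to 0.041 for Slc2a3 at 18 h. The steps within Ikaros cells from 0 to 2 h ranged from -0.55 to 0.033 (Slc2a1), -0.24 to 0.054 (Hk1), -0.022 to 0.40 (Gpi1), -0.38 to 0.20 (Pfkl), -0.11 to 0.19 (Aldoa) and -0.21 to 0.32 (Tpi1). From 2 to 6 h they ranged from -0.16 to 0.0068 (Gpi1), -0.16 to 0.060 (Pfkm) and -0.059 to 0.050 (Tpi1), from 6 to 12 h from -0.00057 to 0.14 (Aldoa) and -0.047 to 0.026 (Tpi1), and from 18 to 24 h from -0.0047 to 0.18 (Hk1). In control cells Tpi1 ranged from -0.79 to 0.059 from 0 to 2 h and Pfkm from -0.069 to 0.073 from 2 to 6 h.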
